A study of Mus musculus with 18 samples.

Results

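The Schlafen genes are a gene family of mammals, several of whose members interferons regulate. RNA of 7 of them was followed here in RAW macrophages, an immortalized mouse cell line that is labelled WT. The members were the genes whose symbol was Slfn1, Slfn2, Slfn3, Slfn4, Slfn5, Slfn8 or Slfn9, which made 7 of the 56748 genes of the count table. Of those 56748 genes, 27701 had at least 1 count in a library and 13691, all 7 members among them, had enough counts to be tested. In all, 11 symbols began with Slfn, and the 4 further ones were the pseudogene Slfn10-ps, the gene Slfn14, the antisense transcript Slfn5os and Slfnl1.

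Macrophages were exposed to TBHQ (tert-butylhydroquinone, a phenolic food antioxidant), to LPS (lipopolysaccharide, a bacterial cell wall component that Toll-like receptors sense) or to PIC (poly I:C, a mimic of viral double-stranded RNA), alone or with TBHQ first. The control received no further treatment, TBHQ was given at 5 µM for 4 h, LPS at 0.1 µg/mL for 12 h and PIC at 20 µg/mL for 12 h, and in LPS + TBHQ and PIC + TBHQ the 4 h of TBHQ came before the 12 h of stimulation. TBHQ was dissolved in DMSO, and no DMSO control is described for these libraries. Effects of TBHQ and of its solvent therefore cannot be told apart. Each of the 6 conditions had 3 libraries, which the study calls biological replicates, made from poly(A)-selected RNA. Cells with TBHQ alone were harvested at the end of the 4 h, and the harvest time of the control is not stated. Harvest time and treatment therefore cannot be told apart in any comparison with the control, whether of TBHQ, LPS or PIC. Whether TBHQ was removed before the stimulus is not stated either.

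Libraries held 14423390 to 18851626 fragments counted on genes. The range was 14599770 to 15932183 in the control, 15552492 to 16267145 with TBHQ, 14423390 to 14502107 with LPS, 16487653 to 17533571 with LPS + TBHQ, 15178175 to 18851626 with PIC and 14934775 to 16906576 with PIC + TBHQ. At these depths the floor of 3 counts stood for 0.159 to 0.208 CPM (counts relative to the size of the library), a limit that covers counting error only. Levels are given as the deposited FPKM, fragments scaled to gene length and library total, times a constant per library that was 0.943 to 0.951 in the control and 1.11 to 1.12 with PIC. Where leaving out this constant changes an overlap between conditions that is described here, this is said.

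The libraries carried the RNA of macrophages. Of 9 macrophage markers, 8 exceeded 1 FPKM, with a summed level of 5585 to 6584 FPKM per library and Lyz2, the lysozyme gene of myeloid cells, as the most abundant at 4021 FPKM. The exception was Mrc1, the mannose receptor, which reached at most 0.343 FPKM. Defining markers of T cells (Cd3e, Cd8a), granulocytes (Ly6g, S100a9), dendritic cells (Ccr7, Siglech), fibroblasts (Col1a2) and epithelium (Krt8, Krt18, Cdh1) had 0 counts in all 18 libraries. Among 5 granulocyte markers, S100a8 was the most abundant and differed between conditions at a low level: the summed level of the list averaged 0.903 FPKM in the control, 3.27 with LPS, 5.59 with PIC, 0.460 with TBHQ, 3.53 with LPS + TBHQ and 3.82 with PIC + TBHQ. Its part in the Schlafen values was not tested. Among 6 T cell markers, only the kinase gene Lck exceeded 1 FPKM on average, and the list summed to 2.22 to 4.94 FPKM per library. The 5 B cell, 5 fibroblast, 4 epithelial and 4 dendritic cell markers summed to at most 0.354, 0.122, 0.0279 and 0.200 FPKM, and the 4 platelet markers, led by Pf4, to 1.42 to 4.02 FPKM. In bulk RNA, fewer cells that express a gene and less of its RNA per cell cannot be told apart.

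Schlafen proteins share a conserved core and fall into classes by length. The short class (Slfn1, Slfn2) holds little more than the core, the intermediate class (Slfn3, Slfn4) carries an added domain, and the long class (Slfn5, Slfn8, Slfn9) ends in a helicase-like domain and can enter the nucleus. The family took its name, German for sleeping, from the growth arrest that Slfn1 imposed on T cells. Slfn2 keeps T cells and monocytes quiescent and protects tRNA from cleavage under oxidative stress, Slfn4 is a gene of the myeloid lineage, several members bind or cut tRNA, and interferons raise several of them in macrophages.

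Levels of the members spanned from below the floor to 725 FPKM. In the control the order by mean FPKM was Slfn4 (166), Slfn2 (119), Slfn5 (17.2), Slfn9 (8.57), Slfn3 (5.16), Slfn8 (4.78) and Slfn1 (0.0339). Libraries of neighbours in this order did not overlap, except those of Slfn3 and Slfn8. Slfn4 and Slfn2 kept the top of the order in all 6 conditions, and in TBHQ alone Slfn2 (mean 94.2 FPKM) stood above Slfn4 (78.3) with no overlap between their libraries. Slfn5 held the next place and Slfn9 the one after it in every condition, although with PIC the libraries of Slfn9 and Slfn8 overlapped. Slfn3 lay above Slfn8 in the control, with TBHQ and with LPS + TBHQ, and below it with LPS, PIC and PIC + TBHQ. With FPKM recomputed from counts, gene length and TMM-scaled library size, 42 of 42 places were the same. This rescaling gives every gene of a library the same factor and cannot reorder genes within it, so the agreement is no check of the order.

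Summed over the 7 members, the level averaged 321 ± 17.6 FPKM in the control (SD, n = 3), 875 ± 31.6 with LPS and 1110 ± 49.2 with PIC. With TBHQ the sum was 202 ± 1.37 alone, 369 ± 5.20 with LPS + TBHQ and 597 ± 11.1 with PIC + TBHQ. Slfn4 supplied 51.7% of the sum in the control, 69.2% with LPS, 62.0% with PIC, 38.7% with TBHQ, 55.4% with LPS + TBHQ and 56.9% with PIC + TBHQ. The sum thus followed Slfn4 and Slfn2 and says little of the other members.

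**Figure D1:**
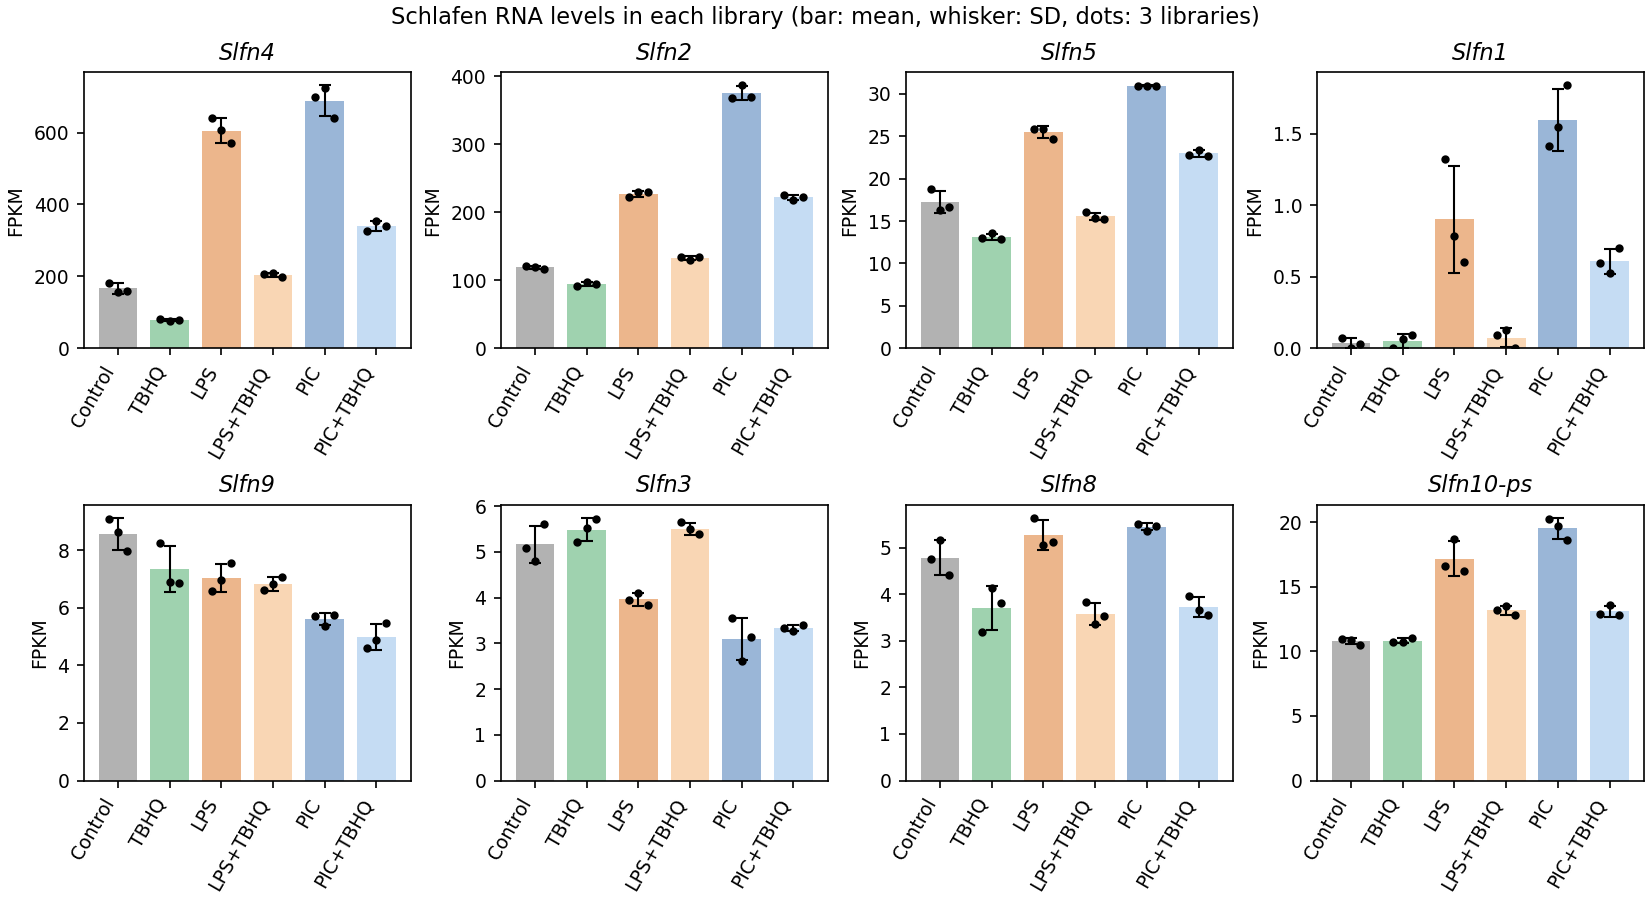
FPKM of the 7 Schlafen genes and Slfn10-ps in the 6 conditions, with bars for the mean, whiskers for the SD and dots for the 3 libraries of each condition; each panel has its own axis from 0. Slfn4 averaged 605 FPKM with LPS and 204 with LPS + TBHQ, and Slfn3 lay lowest with PIC, at 3.10.

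Slfn2, of the short class, is the member whose loss costs T cells and monocytes their quiescence. Its control libraries held 121, 119 and 116 FPKM, its LPS libraries 222, 229 and 229, and its PIC libraries 368, 386 and 370. Those ranges lay apart from one another, with PIC highest. After TBHQ, the libraries held 134.6, 129.8 and 134.8 FPKM with LPS, and 224.7, 218 and 223 with PIC, while TBHQ alone gave 91.7, 97.1 and 93.9. The range of PIC + TBHQ overlapped that of LPS without TBHQ in FPKM and lay below it when scaled to library total alone, and TBHQ alone lay under every control library.

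Against the control, Slfn2 rose with LPS by a log2 fold change of 0.92 ± 0.03 (SE from the spread of the replicates, n = 3 each, adjusted p = 2.79e-22) and with PIC by 1.64 ± 0.03 (adjusted p = 3.56e-30). These are 1.90-fold and 3.11-fold. TBHQ before the stimulus lowered it in both settings, -0.77 ± 0.03 against LPS (adjusted p = 2.51e-19) and -0.74 ± 0.03 against PIC (adjusted p = 4.39e-19), and the difference between these effects was 0.03 ± 0.04 (adjusted p = 0.869). TBHQ alone gave -0.34 ± 0.03 against the control (adjusted p = 2.08e-09). Of the rise in FPKM over the control, 13.0% was left in LPS + TBHQ (8.05% when scaled to library total alone, a scaling chosen for these percentages after seeing the data) and 40.2% in PIC + TBHQ (40.3%). Set against TBHQ alone, Slfn2 was 1.41 times as high in LPS + TBHQ and 2.36 times in PIC + TBHQ. Against the control, LPS stood at 1.90 and PIC at 3.15 (ratios of mean FPKM, not tested). In the ratios to TBHQ alone, harvest time and stimulus cannot be told apart. LPS + TBHQ still exceeded the control by 0.15 ± 0.03 (adjusted p = 0.000542), or by 0.09 when scaled to total library size without TMM, and PIC + TBHQ by 0.89 ± 0.02 (adjusted p = 5.2e-22).

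Slfn1, the founding member, was counted near the floor. Its control libraries had 2, 0 and 1 counts, its TBHQ libraries 0, 2 and 3, and its LPS + TBHQ libraries 3, 4 and 0. LPS gave 35, 21 and 16 counts, PIC 36, 40 and 58, and PIC + TBHQ 17, 14 and 21. All libraries of the last 3 conditions lay above all libraries of the first 3. The pooled counts, scaled to library size, were 25.4 times those of the control with LPS (95% exact interval of 72 against 3 counts 8.36 to 126), 41.4 times with PIC (13.9 to 203) and 16.6 times with PIC + TBHQ (5.37 to 83.0). The intervals cover counting error only. Without control replicate 1, which held 2 of the 3 control counts, the fitted log2 fold change moved from 4.59 to 5.46 with LPS, from 5.41 to 6.28 with PIC and from 4.03 to 4.91 with PIC + TBHQ.

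For TBHQ against the control both groups of Slfn1 lay at or under the floor, so its fitted fold is not read as a result. Without TBHQ the pooled Slfn1 counts were 12.0 times those with TBHQ under LPS (5.54 to 30.9) and 2.50 times under PIC (1.80 to 3.51). Without LPS + TBHQ replicate 2 the fitted log2 fold change of TBHQ under LPS moved from -3.54 to -4.14. edgeR called both, at an adjusted p of 4.66e-06 and 0.00292, as it called LPS (2.14e-07), PIC (5.75e-10) and PIC + TBHQ (5.36e-06) against the control. The fitted log2 fold change of so low a gene moved with the scale: for LPS against the control it was 4.59 on counts, 2.87 on FPKM with 0.1 added and 0.86 with 1 added. The difference between the TBHQ effects under PIC and LPS was not called (adjusted p = 0.116). PIC against LPS, a ratio of 1.63 (1.21 to 2.20), was not called at an adjusted p of 0.0723, and it was called without LPS replicate 1, in a fit of the compared conditions alone and on FPKM with 1 added (adjusted p 0.00386 to 0.281 over all alternatives).

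Slfn4, of the intermediate class, is a myeloid gene induced by interferon and Toll-like receptor signals, and it was the most abundant member in 5 of 6 conditions. Its control libraries held 182, 156 and 161 FPKM, its LPS libraries 639, 606 and 571, and its PIC libraries 699, 725 and 642. Stimulated libraries lay far above the control, and the ranges of LPS and PIC nearly met in FPKM and overlapped when scaled to library total alone. TBHQ alone gave 81.7, 75.7 and 77.4 FPKM, LPS + TBHQ 206, 209 and 197, and PIC + TBHQ 326, 354 and 339. Libraries with TBHQ lay without exception below those of the same stimulus without it, and TBHQ alone was lower than any other condition.

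The log2 fold change of Slfn4 against the control was 1.86 ± 0.08 with LPS (adjusted p = 2.79e-27) and 2.03 ± 0.09 with PIC (adjusted p = 6.88e-29), which are 3.62-fold and 4.09-fold. TBHQ alone lowered it, at -1.09 ± 0.08 (adjusted p = 2.28e-19), to 0.470 of the control. Against the same stimulus, TBHQ gave -1.57 ± 0.05 with LPS (adjusted p = 3.34e-24) and -1.01 ± 0.06 with PIC (adjusted p = 6.49e-19). The drop was smaller under PIC, as the difference between these effects, 0.56 ± 0.08, passed the test (adjusted p = 5.21e-07). Of the FPKM rise over the control, 8.62% was left in LPS + TBHQ and 33.2% in PIC + TBHQ (6.97% and 33.2% when scaled to library total alone).

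Set against TBHQ alone instead of the control, Slfn4 was 2.61 times as high in LPS + TBHQ and 4.34 times as high in PIC + TBHQ, beside 3.64 and 4.14 for the stimuli against the control (ratios of mean FPKM, not tested; 2.49 and 3.92, beside 3.41 and 3.52, when scaled to library total alone). Cells with TBHQ alone were harvested before the 12 h of stimulation, so harvest time and stimulus cannot be told apart in the ratios to TBHQ alone. LPS + TBHQ still exceeded the control by 0.29 ± 0.07 (adjusted p = 3.89e-06) and PIC + TBHQ by 1.02 ± 0.08 (adjusted p = 5.77e-20). PIC exceeded LPS by 0.18 ± 0.07 (adjusted p = 0.0033), a call that ended with total library size, at 0.05, and with limma on FPKM with 0.1 added, at 0.18 (adjusted p 8.33e-08 to 0.449 over all alternatives). After TBHQ, the distance from LPS to PIC was 0.74 ± 0.04 (adjusted p = 5.8e-15).

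Slfn3, its neighbour in class and on the chromosome, went the other way. Control libraries held 5.08, 4.80 and 5.60 FPKM, LPS libraries 3.94, 4.10 and 3.83, and PIC libraries 3.54, 2.62 and 3.13. Both stimuli thus lay below the control without overlap. TBHQ alone gave 5.21, 5.52 and 5.73 FPKM, LPS + TBHQ 5.64, 5.49 and 5.38, and PIC + TBHQ 3.34, 3.26 and 3.40. With LPS + TBHQ the values overlapped those of the control, whereas with PIC + TBHQ they overlapped those of PIC.

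LPS lowered Slfn3 to a log2 fold change of -0.39 ± 0.07 (adjusted p = 0.0009) and PIC to -0.75 ± 0.14 (adjusted p = 3.69e-08). In LPS + TBHQ it was 0.47 ± 0.04 above LPS (adjusted p = 0.000231) and, at 0.08 ± 0.07, not called against the control (adjusted p = 0.5). In PIC + TBHQ it was 0.12 ± 0.13 from PIC (adjusted p = 0.438) and -0.64 ± 0.07 from the control (adjusted p = 9.15e-07). The difference between the TBHQ effects under PIC and LPS, -0.36 ± 0.13, was not called (adjusted p = 0.22), so the effects were not shown to differ. PIC lay below LPS, at -0.36 ± 0.13 (adjusted p = 0.00758), but without PIC replicate 2, the lowest library, at -0.26 and not called (adjusted p 0.000283 to 0.0851 over all alternatives). TBHQ alone gave 0.08 ± 0.07 (adjusted p = 0.54).

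Slfn5, of the long class, is a nuclear member that interferons raise. Control libraries held 18.8, 16.3 and 16.6 FPKM, LPS libraries 25.9, 25.9 and 24.7, and PIC libraries 31.0, 30.9 and 31.0. The 3 ranges lay apart, and the PIC libraries were nearly alike. TBHQ alone gave 13.0, 13.6 and 12.9 FPKM, LPS + TBHQ 16.1, 15.4 and 15.2, and PIC + TBHQ 22.8, 23.4 and 22.7. With LPS + TBHQ all libraries lay just below the control, and with PIC + TBHQ between the control and LPS.

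The log2 fold change of Slfn5 against the control was 0.56 ± 0.07 with LPS (adjusted p = 4.29e-13) and 0.83 ± 0.06 with PIC (adjusted p = 2.86e-18). TBHQ lowered it, at -0.72 ± 0.03 under LPS (adjusted p = 2.69e-15), at -0.42 ± 0.01 under PIC (adjusted p = 9.15e-10) and at -0.39 ± 0.07 alone (adjusted p = 2.29e-08). The difference between the effects under PIC and LPS was 0.30 ± 0.04 (adjusted p = 0.00464), a call that limma on FPKM did not make, at 0.26 with 1 added and 0.28 with 0.1 added (adjusted p 0.000867 to 0.0846 over all alternatives). Of the FPKM rise over the control, 41.8% was left in PIC + TBHQ (37.5% when scaled to library total alone), which exceeded the control by 0.41 ± 0.07 (adjusted p = 7.85e-10), or by 0.26 with total library size. Set against TBHQ alone, Slfn5 was 1.74 times as high in PIC + TBHQ, beside 1.79 for PIC against the control. For LPS these ratios of mean FPKM were 1.18 and 1.48. They were not tested, and in those to TBHQ alone harvest time and stimulus cannot be told apart. LPS + TBHQ fell under the control, at -0.16 ± 0.07 (adjusted p = 0.00421), and without control replicate 1, the highest, this was -0.09 and not called (adjusted p 9.73e-05 to 0.101 over all alternatives). PIC exceeded LPS by 0.27 ± 0.02 (adjusted p = 6.02e-06), or by 0.14 with total library size.

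Slfn8, a long member, split by TBHQ. Control libraries held 4.76, 5.16 and 4.41 FPKM, LPS libraries 5.64, 5.06 and 5.13, and PIC libraries 5.52, 5.37 and 5.46. LPS overlapped the control, and PIC lay just above it in FPKM but within its range when scaled to library total alone. With TBHQ the libraries held 3.20, 4.13 and 3.81 FPKM alone, 3.83, 3.35 and 3.52 with LPS, and 3.96, 3.66 and 3.55 with PIC. All 9 libraries with TBHQ lay below all 9 without it.

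For Slfn8, neither LPS (0.14 ± 0.08, adjusted p = 0.223) nor PIC (0.17 ± 0.07, adjusted p = 0.0975, with the sign turned to -0.05 under total library size) was called against the control. TBHQ lowered it alone, at -0.37 ± 0.13 (adjusted p = 0.00229), under LPS, at -0.56 ± 0.07 (adjusted p = 1.18e-05) and under PIC, at -0.54 ± 0.05 (adjusted p = 2.04e-05). Against the control, LPS + TBHQ lay at -0.43 ± 0.09 (adjusted p = 0.000222) and PIC + TBHQ at -0.36 ± 0.08 (adjusted p = 0.0012). The difference between the TBHQ effects was 0.03 ± 0.09 (adjusted p = 0.955).

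Slfn9, the long member next to Slfn8, fell with stimulation. Control libraries held 9.09, 8.63 and 7.98 FPKM, LPS libraries 6.59, 6.97 and 7.54, and PIC libraries 5.71, 5.37 and 5.76. These ranges descended from control to LPS to PIC without overlap. TBHQ alone gave 8.26, 6.89 and 6.85 FPKM, LPS + TBHQ 6.60, 6.81 and 7.08, and PIC + TBHQ 4.60, 4.88 and 5.47. Each condition with TBHQ overlapped its counterpart without it.

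The log2 fold change of Slfn9 against the control was -0.29 ± 0.08 with LPS (adjusted p = 0.000983), -0.62 ± 0.06 with PIC (adjusted p = 3.78e-09), -0.33 ± 0.06 with LPS + TBHQ (adjusted p = 0.000183) and -0.79 ± 0.09 with PIC + TBHQ (adjusted p = 3.05e-11). PIC lay below LPS, at -0.33 ± 0.06 (adjusted p = 0.000861). TBHQ gave -0.04 ± 0.06 under LPS (adjusted p = 0.734) and -0.16 ± 0.08 under PIC (adjusted p = 0.121). The second of these was called, at -0.24, without PIC + TBHQ replicate 3 (adjusted p 0.0353 to 0.396 over all alternatives). TBHQ alone gave -0.23 ± 0.11 (adjusted p = 0.0141), and this call was lost, at -0.18 each, without control replicate 1, TBHQ replicate 2 or TBHQ replicate 3, and by limma on FPKM with 0.1 added, at -0.22 (adjusted p 0.000896 to 0.0975 over all alternatives).

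Of the 4 further symbols, only the pseudogene Slfn10-ps was tested. It averaged 10.8 FPKM in the control, 17.2 with LPS, 19.5 with PIC, 10.8 with TBHQ, 13.2 with LPS + TBHQ and 13.1 with PIC + TBHQ. It rose with LPS by a log2 fold change of 0.66 ± 0.07 (adjusted p = 2.81e-12) and with PIC by 0.84 ± 0.04 (adjusted p = 2.11e-15), and TBHQ lowered it, at -0.39 ± 0.07 under LPS (adjusted p = 1.12e-06) and at -0.57 ± 0.04 under PIC (adjusted p = 2.77e-10). Its control and TBHQ libraries overlapped (adjusted p = 0.971). Slfn14, Slfnl1 and Slfn5os never passed 1, 2 and 2 counts in a library and were not tested.

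**Figure D2:**
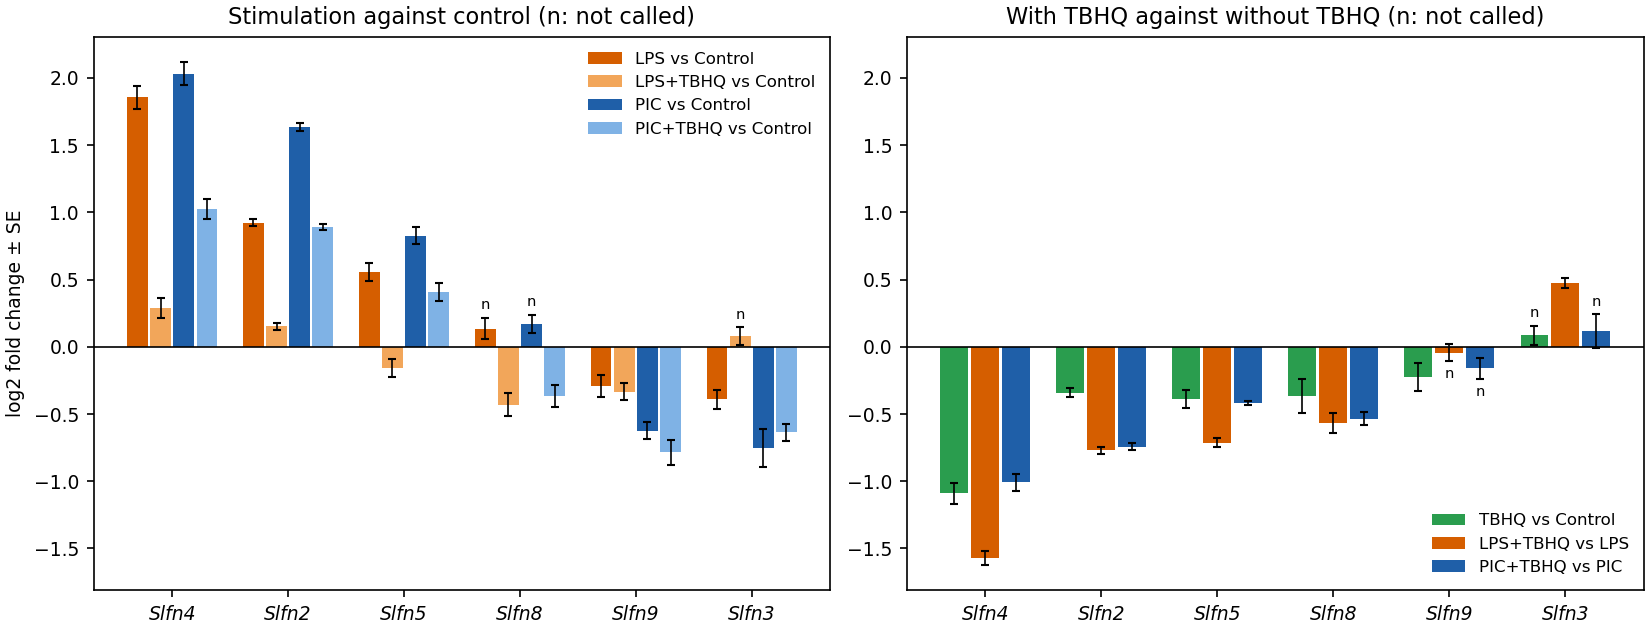
Log2 fold change with SE (n = 3 libraries per condition) of 6 Schlafen genes, on the left for the stimuli against the control and on the right for TBHQ against no TBHQ; the letter n marks values that were not called. With LPS, TBHQ took Slfn4 down, at -1.57 and Slfn3 up by 0.47; Slfn1 is left out for its low counts.

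Read as a family, 4 of 7 members (Slfn1, Slfn2, Slfn4, Slfn5) rose with LPS at an adjusted p below 0.05, where 24.0% of all genes tested did, and 2 (Slfn3, Slfn9) fell, where 24.1% did. With PIC the 4 that rose and the 2 that fell were the same genes, beside 28.6% and 30.1% of all genes. These comparisons share the control libraries. At the study's threshold of an adjusted p below 0.01 and a log2 fold change above 2, Slfn1 alone passed with LPS, beside 1.34% of all genes, and Slfn1 and Slfn4 passed with PIC, beside 2.70%. These Slfn1 folds are fitted values that depend on the handling of low counts. Slfn4 passed narrowly, at 2.03, and lay under 2 with total library size (1.81) and without control replicate 2 (1.99).

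The stimuli were also compared with each other. Slfn2, Slfn4 and Slfn5 were higher with PIC than with LPS (3 of 7, beside 14.9% of all genes) and Slfn3 and Slfn9 were lower (2 of 7, beside 12.8%); under total library size Slfn4 was no longer called. After TBHQ, PIC + TBHQ exceeded LPS + TBHQ in Slfn1, Slfn2, Slfn4 and Slfn5 (4 of 7, beside 11.9%) and lay below it in Slfn3 and Slfn9 (2 of 7, beside 8.39%). The log2 fold change was then 0.74 ± 0.02 for Slfn2 (adjusted p = 1e-18), 0.57 ± 0.03 for Slfn5 (adjusted p = 1.98e-12), -0.72 ± 0.03 for Slfn3 (adjusted p = 3.59e-07) and -0.45 ± 0.08 for Slfn9 (adjusted p = 1.9e-05). Pooled Slfn1 counts were 7.83 times as high (52 against 7 counts, 95% exact interval 3.54 to 20.4), and without LPS + TBHQ replicate 2 the fitted log2 fold change of Slfn1 moved from 2.98 to 3.58.

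TBHQ alone lowered 5 of 7 members (Slfn2, Slfn4, Slfn5, Slfn8, Slfn9), where 14.8% of all genes fell. edgeR called 0 members higher, where 14.2% of all genes rose, and 0 also at an unadjusted p below 0.05, with DESeq2 and with limma. Under LPS, TBHQ lowered Slfn1, Slfn2, Slfn4, Slfn5 and Slfn8 (5 of 7, beside 12.2%) and raised Slfn3 (1 of 7, beside 11.7%). Under PIC it lowered the same 5 (beside 15.5%) and edgeR called 0 higher (beside 15.8%), with 0 also at an unadjusted p below 0.05, with DESeq2 and with limma.

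LPS + TBHQ left Slfn2 and Slfn4 above the control (2 of 7, beside 21.2%) and Slfn5, Slfn8 and Slfn9 below it (3 of 7, beside 22.5%). PIC + TBHQ left Slfn1, Slfn2, Slfn4 and Slfn5 above it (4 of 7, beside 26.4%) and Slfn3, Slfn8 and Slfn9 below it (3 of 7, beside 26.0%). The TBHQ effect was more positive under PIC than under LPS for Slfn4 and Slfn5 (2 of 7, beside 0.825%). edgeR called 0 members in the other direction, beside 1.01%, with 1 at an unadjusted p below 0.05 and 0 with DESeq2 or limma.

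Interferon ligands, which act upstream of several Schlafen genes, were scarcely counted. Ifnb1 had at most 12 counts in a library and was not among the genes tested. Its mean was highest with PIC, at 0.676 FPKM, and 0.0931 to 0.212 in the other conditions. In all, 10 of the 29 genes of interferon signalling were not tested. Of the 19 that were, 10 rose and 3 fell with LPS (10 and 5 with total library size), beside 24.0% and 24.1% of all genes. With PIC, beside 28.6% and 30.1%, 13 rose and 4 fell (11 and 5; median log2 fold change 0.49, beside -0.01 for all genes tested). They included the feedback inhibitor Socs3 (4.82 ± 0.04 with PIC) and the transcription factor Irf7 (1.73 ± 0.04) as the highest called, and the phosphatase Ptpn6 (-0.37 ± 0.02) and the receptor chain Ifngr1 (-0.35 ± 0.09) as the lowest. TBHQ lowered 10 under LPS (9 with total library size), beside 12.2% of all genes, and 10 under PIC, beside 15.5%, in both cases with Jak1, Jak2, Irf7, Irf9, Socs3 and Usp18 among them. It raised Ptpn6 under both (beside 11.7% and 15.8%) and Irf3 under PIC. With TBHQ alone Socs3 rose, beside 14.2%, and 6 genes fell, beside 14.8%. The TBHQ effect was more positive under PIC for Stat2, Irf7 and Usp18, beside 0.825%.

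Of 23 interferon-stimulated genes, all of them tested, 22 rose with LPS (21 with total library size) and 23 with PIC, beside 24.0% and 28.6% of all genes, with medians of 0.82 and 1.92. Rsad2, which codes for viperin, and the GTPase gene Gbp2 rose most with PIC (3.85 ± 0.12 and 3.81 ± 0.01), and Oas2 and Oas3, sensors of double-stranded RNA, rose least (0.42 ± 0.09 and 0.47 ± 0.03). TBHQ lowered 23 of 23 under LPS (median -1.39) and 23 under PIC (median -0.98; 22 with total library size), beside 12.2% and 15.5%. It alone lowered 20 (median -0.51), beside 14.8%, and raised Cxcl10, beside 14.2%. LPS + TBHQ left 14 below the control, beside 22.5%, and 6 above it (4 with total library size), beside 21.2%, whereas PIC + TBHQ left 20 above it (19 above and 2 below with total library size), beside 26.4%. The TBHQ effect was more positive under PIC for 14 of the 23 (17 with total library size), beside 0.825%. Beside these list medians, the median of all genes tested lay no farther from 0 than -0.01 in any comparison. With total library size, 2454 of 13691 genes were higher with LPS and 1436 lower with TBHQ under PIC. In that setting 235 genes had a TBHQ effect more positive under PIC. Against the control, 2281 were higher in LPS + TBHQ, and 2364 were higher and 5515 lower in PIC + TBHQ.

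Genes that mark the treatments moved in these libraries as well. Against the control, all 6 Nrf2 target genes rose in each of the 3 conditions that held TBHQ (median 1.70 with TBHQ alone), beside 14.2% of all genes with TBHQ, 21.2% with LPS + TBHQ and 26.4% with PIC + TBHQ. Stimulation without TBHQ also raised 5 of them with LPS (median 1.11), beside 24.0%, and 4 with PIC (median 1.05), beside 28.6%. With total library size 1 of the 6 fell with PIC, beside 6635 of 13691 genes in that setting. Against the same stimulus TBHQ raised 5, beside 11.7% under LPS and 15.8% under PIC, and lowered 1, beside 12.2% and 15.5%. With PIC, Gclm and Txnrd1, of glutathione and thioredoxin metabolism, rose by 0.72 ± 0.04 and 0.93 ± 0.03, and Srxn1 and Hmox1 by 1.5 ± 0.03 and 2.57 ± 0.05. All 5 inflammatory genes rose with LPS and with PIC, beside 24.0% and 28.6% of all genes, by 2.23 ± 0.05 (Nfkbia), 3.14 ± 0.08 (Tnf), 3.39 ± 0.12 (Cxcl10), 7.23 ± 0.17 (Ccl5) and 11.39 ± 0.18 (Il1b) with PIC. TBHQ lowered all 5 under each stimulus, beside 12.2% and 15.5%. With TBHQ alone 3 of them rose, beside 14.2%, while 5 Schlafen genes fell, beside 14.8%.

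Which genes had the pattern most like each member was read from log2 CPM over the 18 libraries, among 2961 genes whose condition means spanned at least 1 on the log2 scale. The values of Pearson's r are descriptions, since libraries of a condition lie together. Slfn4 was most like Gvin-ps7 (r = 0.993), Ifi202b (0.991) and Lgals9 (0.990). Slfn2 was most like Bcl2a1d (0.994), Npc2 (0.990) and Tiparp (0.989), and Slfn5 most like Sp100 (0.994), Rnf213 (0.990) and Samd9l (0.989). For Slfn1 they were Tapbp (0.959), Cish (0.959) and Gbp3 (0.95), and for Slfn8 Rgs1 (0.917), Clec7a (0.902) and Cd83 (0.902). Slfn9 was most like Esco2 (0.935), Ncapd3 (0.932) and Mcm7 (0.920), genes of sister chromatid cohesion, chromosome condensation and DNA replication. Slfn3 was most like Alms1 (0.951), Mms22l (0.936) and Gm45606 (0.934). Over the 6 condition means, 1 of the 3 genes was the same for Slfn1, Slfn3, Slfn4, Slfn8 and Slfn9, and 0 for Slfn2 and Slfn5.

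Between members, r was 0.972 for Slfn2 and Slfn5, 0.959 for Slfn4 and Slfn5 and 0.944 for Slfn2 and Slfn4. Slfn3 ran against them, with r = -0.919 to Slfn2, and beside Slfn9, with 0.729. Slfn8 and Slfn9, neighbours that share sequence, had r = 0.04.

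All 7 members lay on chromosome 11, in the positions that the count table gives. The labels name both GRCm38 and mm39 as the build, and the start of Slfn4 in the table, 83066012, is not that of GRCm38.p6, where its promoter ends at 83175185. On the plus strand lay Slfn5 (ENSMUSG00000054404, 82842175 to 82855666), Slfn2 (ENSMUSG00000072620, 82955938 to 82961504), Slfn1 (ENSMUSG00000078763, 83007675 to 83013496), Slfn4 (ENSMUSG00000000204, 83066012 to 83081042) and Slfn3 (ENSMUSG00000018986, 83082156 to 83105980). On the minus strand lay Slfn9 (ENSMUSG00000069793, 82869216 to 82882656), Slfn8 (ENSMUSG00000035208, 82892984 to 82911636) and Slfn10-ps (ENSMUSG00000072621, 82918956 to 82930868). The 4 members that rose with LPS and PIC were on the plus strand, beside Slfn3, which fell, and 1113 bases separated Slfn3 from Slfn4.

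**Figure D3:**
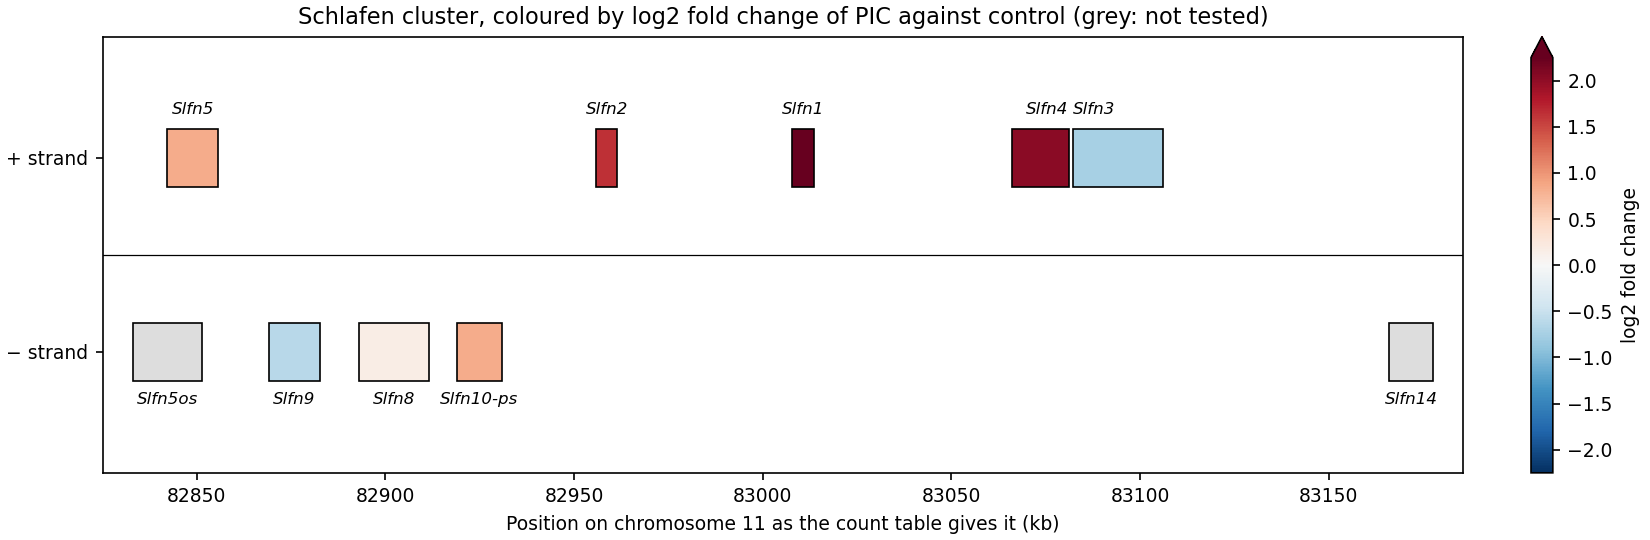
Schlafen-named genes of chromosome 11 by position (kb, as the count table gives it) and strand, coloured by the log2 fold change of PIC against the control, with genes not tested in grey. Slfn4 (2.03) and Slfn3 (-0.75) lie side by side with opposite colours; the colour of Slfn1 is a fitted value of low counts.

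Within 200000 bases of the cluster the table lists 37 other genes, of which 15 were tested. With PIC, 6 of these rose (Lig3, Rffl, Gm11425, Gm20234, Gm11427, Ap2b1), beside 28.6% of all genes, and 3 fell (Fndc8, Nle1, AA465934), beside 30.1%. With LPS, 4 rose (Rffl, Gm11425, Gm20234, Ap2b1), beside 24.0%, and 3 fell (Fndc8, Nle1, AI662270), beside 24.1%, which are shares near those of all genes. Rffl, a ubiquitin ligase gene that ends at 82762036, outside the cluster, rose by 1.32 ± 0.12 with LPS (adjusted p = 6.08e-15) and 1.68 ± 0.15 with PIC (adjusted p = 1.6e-18), and TBHQ lowered it, at -0.38 ± 0.05 (adjusted p = 0.00049) and -0.28 ± 0.10 (adjusted p = 0.00451). With TBHQ alone Rffl rose instead, by 0.43 ± 0.12 (adjusted p = 0.000607), and 4 of the 15 rose in all, beside 14.2%, Lig3 and Nle1 among them. Taf15 fell (1 of 15, beside 14.8%). Gm20234, which lies antisense over Slfn2, averaged 0.730 FPKM in the control, 2.00 with LPS and 3.49 with PIC. It was 1.21 with TBHQ, 1.35 with LPS + TBHQ and 2.14 with PIC + TBHQ. TBHQ was called for 3 of the 15 neighbours under LPS (Gm11427 higher, beside 11.7%, and Rffl and Taf15 lower, beside 12.2%) and 4 under PIC (Nle1 higher, beside 15.8%, and Rffl, AI662270 and Ap2b1 lower, beside 15.5%).

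Schlafen genes arose by duplication, so part of their sequence is held in common and a fragment may match more than 1 of them. How such fragments were counted is not given in the labels. In GENCODE vM21 transcripts, the share of a gene's words of 50 bases that another gene also holds on the same strand was 15.6% for Slfn3, 14.6% for Slfn8, 11.5% for Slfn9, 10.8% for Slfn4, 4.27% for Slfn2, 3.37% for Slfn5 and 0.606% for Slfn1. Slfn10-ps had the highest share, 19.7%. With words of 100 bases the shares were 2.92%, 3.39%, 3.71%, 0.271%, 0.128%, 0.238% and 0% in the same order of members, and with 150 bases they were 0% except in Slfn3 (1.29%) and Slfn9 (1.46%). On the opposite strand, Slfn5 held 467 words of 50 bases (7.39%) and 338 of 150 bases (5.46%) in common with Slfn5os, whose gene overlaps it. The libraries were strand-specific.

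On the same strand, the partner with the most shared words lay within the cluster for each member except Slfn5, whose partners were genes outside it. Slfn3 shared 252 words of 50 bases with Slfn4, 7.39% of its own and 6.28% of those of Slfn4, and 220 with the pseudogene Gm11427, beside at most 56 with a gene outside the cluster. Slfn8 shared 389 with Slfn9, 9.30% and 6.52% of their words. Slfn10-ps shared 483 with Slfn9 and 423 with Slfn8. Slfn4 averaged 605 FPKM with LPS and Slfn3 3.96, and Slfn3 fell where Slfn4 rose. The part of shared sequence in the values was not tested.

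All 7 members had a promoter in the RefSeq table (GRCm38.p6, 250 bases before to 50 after the start), and 4 motifs were searched on both strands among its 32851 promoters. They were the core of the interferon-stimulated response element (GAAANNGAAA, in 3.44% of promoters), the interferon gamma activated site (TTCNNNGAA, 8.30%), the antioxidant response element (TGACNNNGC, 12.4%) and the NF-kB consensus (8.46%). The interferon-stimulated core occurred in Slfn5, Slfn8 and Slfn9, of which Slfn5 rose, Slfn8 was not called and Slfn9 fell with both stimuli. The antioxidant letters occurred in Slfn3 and Slfn5, and the NF-kB consensus in Slfn1 and, on both strands at the same place, in Slfn9. Slfn2 and Slfn4 held 0 of the 4 motifs, and the activated site was in 0 of the 7 promoters. A match says only that the letters are there.

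The 250 bases before the start are shown for the 4 members that rose and for Slfn9, which fell, 5′ to 3′ on the strand of the gene, with motif matches in capitals. They are chr11:83174936-83175185, chr11:83064862-83065111, chr11:83116570-83116819 and chr11:82951852-82952101 on the plus strand and chr11:82991831-82992080 on the minus strand. In Slfn1 the capitals mark the NF-kB consensus (-43 to -34 from the start), in Slfn5 the interferon-stimulated core (-155 to -146) and then the antioxidant letters on the other strand (-39 to -31), and in Slfn9 the NF-kB consensus (-214 to -205) and then the interferon-stimulated core on the other strand (-45 to -36).
Slfn4: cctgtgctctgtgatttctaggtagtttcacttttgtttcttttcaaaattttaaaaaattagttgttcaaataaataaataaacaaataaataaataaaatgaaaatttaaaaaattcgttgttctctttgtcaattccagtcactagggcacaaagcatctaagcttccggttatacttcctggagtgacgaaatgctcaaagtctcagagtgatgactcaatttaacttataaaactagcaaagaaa
Slfn2: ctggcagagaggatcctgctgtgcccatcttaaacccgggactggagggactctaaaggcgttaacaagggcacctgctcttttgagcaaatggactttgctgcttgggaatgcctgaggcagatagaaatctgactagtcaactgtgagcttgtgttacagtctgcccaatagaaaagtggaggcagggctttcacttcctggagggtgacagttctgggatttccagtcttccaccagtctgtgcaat
Slfn1: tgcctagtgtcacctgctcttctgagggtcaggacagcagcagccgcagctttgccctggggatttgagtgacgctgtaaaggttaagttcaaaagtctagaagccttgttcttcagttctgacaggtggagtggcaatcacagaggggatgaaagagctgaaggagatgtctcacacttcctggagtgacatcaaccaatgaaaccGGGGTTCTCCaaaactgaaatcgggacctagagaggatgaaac
Slfn5: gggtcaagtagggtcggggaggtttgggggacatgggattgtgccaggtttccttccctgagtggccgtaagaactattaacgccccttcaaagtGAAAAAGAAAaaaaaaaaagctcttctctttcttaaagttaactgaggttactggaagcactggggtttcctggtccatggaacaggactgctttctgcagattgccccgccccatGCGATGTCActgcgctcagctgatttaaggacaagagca
Slfn9: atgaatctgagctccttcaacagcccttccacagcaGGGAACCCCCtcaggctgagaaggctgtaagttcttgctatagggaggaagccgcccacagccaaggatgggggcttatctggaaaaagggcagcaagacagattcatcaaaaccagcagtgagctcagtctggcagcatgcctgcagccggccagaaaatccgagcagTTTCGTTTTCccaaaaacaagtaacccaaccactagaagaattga

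Promoters of the short and intermediate members also had a run of letters in common, noticed after the values were seen. The longest run of Slfn1 and Slfn4, 15 bases that begin 74 and 73 bases before the start, was in 2 of the 32851 promoters, and that of Slfn1 and Slfn2, 12 bases, in 9. Slfn2 and Slfn4 shared 11 bases of it, in 20 promoters, and Slfn3, which fell with both stimuli, held 9 bases of it (0.700% of promoters). Slfn8 and Slfn9 shared a run of 20 bases, found in 3 promoters. The runs are shown to let the promoters be compared.
Slfn1 and Slfn4: acttcctggagtgac
Slfn1 and Slfn2: cacttcctggag
Slfn8 and Slfn9: tctggcagcatgcctgcagc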

How the data were processed

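RNA of 18 libraries of a mouse macrophage cell line, 3 in each of 6 conditions, was measured by strand-specific poly(A) sequencing. The labels name HISAT2 2.0.5, StringTie 1.3.3b and featureCounts 1.5.0-p3. The authors deposited raw counts per gene, without normalization. The authors also deposited FPKM values, which equal counts over gene length and library total times a constant per library (0.943 to 1.12). Replicate numbers do not pair libraries: 45 pairs with the same number correlated at -0.0444 to 0.0645, as low as the 90 others, so no pairing was used. These correlations cannot show whether the replicates of a condition came from separate cultures. The fit treats them as independent, and its p-values measure effects against the spread among these libraries only. Replicates of a condition differed by more than counting error (chi-square per degree of freedom 2.49 to 4.61), so no library was a copy of another.

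Counts were read with Python 3.11.15 and tested in R 4.3.3 with edgeR 4.0.16 (filterByExpr, TMM, glmQLFit and glmQLFTest, 1 coefficient per condition, 18 libraries). p-values were adjusted by Benjamini-Hochberg over 13691 genes and called below 0.05. SE values come from log2 CPM with a prior count of 2. The procedure was tested on simulated data. The alternatives were DESeq2 1.42.0, limma 3.58.1 on log2 FPKM with 1 or 0.1 added, RLE or total library size, no low-count filter or a mean of at least 50 counts, the compared conditions alone, a replicate block, other thresholds, and leaving out each library.

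Named are the 7 members, other symbols beginning with Slfn, the 2 highest and 2 lowest genes called with PIC in each list (all of a list where 5 or fewer were called), the 3 genes most like each member and the genes within 200000 bases of the cluster. Of the marker lists, the most abundant genes, those over 1 FPKM and defining markers at 0 were named. Genes named for their call with TBHQ were chosen after their values were seen. The results for 4 of these genes are not reported here. The members and lists were chosen with earlier results of these data known. Ratios of Slfn1 counts have exact 95% intervals.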

Additional observations from a re-analysis of the deposited data

Results flagged for a closer look

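A difference between groups was found for 2 members: TBHQ lowered Slfn4 and Slfn5 less under PIC than under LPS. For Slfn4 the TBHQ effect under PIC minus that under LPS was 0.56 ± 0.08 (log2, SE, n = 3 libraries per condition, edgeR adjusted p = 5.21e-07, 2.71e-34 to 0.021 over all alternatives). For Slfn5 it was 0.30 ± 0.04 (adjusted p = 0.00464, 0.000867 to 0.0846 over all alternatives), a call that limma on FPKM did not make. Both differences were tested as an interaction, and all libraries with TBHQ lay below those of the same stimulus without it.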

How the results depend on the processing

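The 20 counts of members called, and all 80 log2 fold changes of the 7 members and Slfn10-ps, were also computed under alternatives. The 20 counts were the same with DESeq2, RLE and no filter. With the replicate number as a block, all 20 counts and all 80 directions and calls were the same. Members higher with PIC than with LPS, 3 of 7, numbered 2 with total library size, beside 985 of 13691 genes. They numbered 4 in the fit of the compared conditions alone, beside 1829 of 12750 genes. With a mean of at least 50 counts Slfn1 was not tested, and each count that had held it was smaller by 1: 3 higher with LPS, PIC and PIC + TBHQ against the control and with PIC + TBHQ against LPS + TBHQ, and 4 lower with TBHQ under each stimulus. With limma on FPKM, 1 member in place of 2 had a TBHQ effect more positive under PIC, whether 1 or 0.1 was added, members higher with PIC than with LPS numbered 4 (1 added) or 2 (0.1 added), and members lower with TBHQ alone numbered 4 in place of 5 (0.1 added). Leaving out 1 library gave a range of 1 to 2 for members lower with PIC than with LPS (1 without PIC replicate 2) and 3 to 4 for members higher (4 without LPS replicate 1). It gave 4 to 5 for members lower with TBHQ alone (4 without control replicate 1, TBHQ replicate 2 or TBHQ replicate 3), 2 to 3 for members lower with LPS + TBHQ than in the control (2 without control replicate 1), and 5 to 6 for members lower with PIC + TBHQ than with PIC (6 without PIC + TBHQ replicate 3). The other counts did not move when 1 library was left out. Counts given here without a share of all genes describe the members only.

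With an adjusted p below 0.01 and a log2 fold change beyond 2, members higher than in the control numbered 1 for LPS, 2 for PIC, 1 for PIC + TBHQ and 0 for LPS + TBHQ, and members higher elsewhere 0 with LPS + TBHQ against LPS, 0 with PIC against LPS, 1 with PIC + TBHQ against LPS + TBHQ and 0 for the difference between TBHQ effects. Members lower numbered 1 with LPS + TBHQ against LPS and 0 in the other comparisons. With an adjusted p below 0.05 and a log2 fold change beyond 1, members higher than in the control numbered 2 for LPS, 3 for PIC, 2 for PIC + TBHQ and 0 for LPS + TBHQ, and members higher elsewhere 1 with PIC + TBHQ against LPS + TBHQ and 0 otherwise. Members lower numbered 1 with TBHQ, 2 with LPS + TBHQ against LPS, 2 with PIC + TBHQ against PIC and 0 otherwise. Fewer pass here by the construction of the threshold. At the first threshold 1.34% of all genes were higher with LPS and 2.70% with PIC. For the other counts of this paragraph no share of all genes was taken, so they describe the members only.

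Signs turned in 14 cases, none of them called. With total library size Slfn8 gave -0.0452 for PIC against the control, -0.0928 for PIC against LPS and -0.0205 for PIC + TBHQ against LPS + TBHQ. Leaving out 1 library gave ranges of -0.0416 to 1.49 (Slfn1) and -0.015 to 0.016 (Slfn10-ps) for TBHQ against the control, -0.0911 to 0.0083 for LPS + TBHQ against LPS (Slfn9), -0.0334 to 0.012 for PIC + TBHQ against LPS + TBHQ (Slfn10-ps), and -0.0014 to 0.0397 (Slfn2) and -0.0248 to 0.0804 (Slfn8) for the difference between TBHQ effects. For Slfn1 these are fitted values of a gene at or under the floor in both groups. The cause was not tested.

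Total library size moved the median of all genes to -0.23 for PIC and -0.15 for PIC + TBHQ against the control and to -0.14 for PIC against LPS, and the share of called genes that were higher from 48.7% to 26.4%, from 50.4% to 30.0% and from 53.7% to 18.4%. That share moved also for LPS (49.8% to 35.0%) and LPS + TBHQ (48.4% to 36.1%) against the control, LPS + TBHQ against LPS (48.9% to 59.5%), PIC + TBHQ against PIC (50.6% to 70.3%), PIC + TBHQ against LPS + TBHQ (58.6% to 25.6%) and the difference between TBHQ effects (45% to 76.1%, or 31.2% with DESeq2). Slfn10-ps was not called for PIC + TBHQ against the control (0.13) or PIC against LPS (0.04) with total library size, nor for the latter without LPS replicate 1 (0.15), LPS replicate 3 (0.14) or PIC replicate 1 (0.15). Among the members, Slfn1 alone had counts near the floor, and its highest library held 58 counts. Whether depth limits the other members was not tested.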

Other observations

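Genes of tRNA cleavage and protection, a process in which Schlafen proteins take part, mostly fell with stimulation. Of 12 genes 9 were tested, and 6 fell with LPS and 7 with PIC, beside 24.1% and 30.1% of all genes. With PIC they included the tRNA methyltransferase Trdmt1 (log2 fold change -0.73 ± 0.05), the tRNA 3′ nuclease Elac2 (-0.27 ± 0.05) and the ligase Rtcb (-0.10 ± 0.04). Under LPS, TBHQ raised 1 of the 9, beside 11.7% of all genes, and lowered 0, beside 12.2%. The gene raised was Rnh1, the inhibitor of RNases such as angiogenin. With TBHQ alone Rnh1 and Nsun2 rose (Nsun2 by 0.13, adjusted p = 0.00231), beside 14.2%, and 0 fell, beside 14.8%. Under PIC, TBHQ raised 3, with Rnh1 and Elac2 among them, beside 15.8%, and lowered Trdmt1, Nsun2 and Rtcb, beside 15.5%. With total library size TBHQ raised 4 under PIC in place of 3, beside 3398 of 13691 genes in that setting. Trdmt1, Nsun2 and Rtcb were then not called.

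Genes of the G1 phase and quiescence split, and all 18 were tested. With LPS 6 rose, beside 24.0% of all genes, and 8 fell, beside 24.1%. With PIC 4 rose, beside 28.6%, and 10 fell, beside 30.1%. Cdkn1a, an inhibitor of cyclin-dependent kinases, and Myc rose most with PIC (1.78 ± 0.06 and 1.69 ± 0.12), while the proliferation marker Mki67 and the inhibitor Cdkn2c fell most (-2.04 ± 0.06 and -1.73 ± 0.07). TBHQ lowered Cdkn1a and Myc and raised Mki67 and Cdkn2c under each stimulus. Of all 18, it raised 5 and lowered 5 under LPS, beside 11.7% and 12.2% of all genes. Under PIC it raised 5 and lowered 8 (6 with total library size), beside 15.8% and 15.5%. With total library size TBHQ lowered 1436 of 13691 genes under PIC. The TBHQ effect on Mki67 was more negative under PIC than under LPS (adjusted p = 0.00298), the only such call in the list.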
